A study of Mus musculus with 9 samples.

Results

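The genes described here are 10 genes of bile acid synthesis and transport in mouse liver, Cyp7a1, Cyp7b1, Cyp8b1, Cyp27a1, Slc27a5, Baat, Abcb11, Slc10a1, Nr1h4 and Nr0b2. They were taken by gene name from a table of 52151 gene entries, of which 47388 carry a name, and all 10 names were found on 14 entries. The entry that describes the gene itself held an annotated transcript for 8 of the 10 genes. The entries of Cyp7b1 and Cyp8b1 held only transcripts assembled from the reads, and the other 4 entries were antisense or assembled pieces at Slc10a1, Slc27a5 and Abcb11. Bulk liver RNA was sequenced in 9 libraries, 3 from pair-fed mice (PF) on an isocaloric control liquid diet, 3 from alcohol-fed mice (AF) on the Lieber-DeCarli alcohol diet, and 3 from alcohol-fed mice that were also injected intraperitoneally every day with MNA at 50 mg/kg (AF with MNA). MNA is an abbreviation that the labels do not spell out. The feeding lasted 5 weeks and the labels give an age of 8 weeks. The methods describe the PF and AF animals as male and as killed after a fast. The strain labels read C57BL/6 for PF and AF and C57BL/7, C57BL/8 and C57BL/9 for the 3 AF with MNA libraries.

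Bile acids are made from cholesterol in hepatocytes. Cyp7a1 opens the classic pathway and sets its pace, whereas Cyp27a1 and Cyp7b1 carry the alternative pathway through oxysterols, and Cyp8b1 adds the hydroxyl group that distinguishes cholic acid from the muricholic acids of mice. Slc27a5 and Baat activate bile acids and join them to taurine. Abcb11 pumps the conjugates into bile, and Slc10a1 takes them back from portal blood. Nr1h4 encodes FXR, the nuclear receptor that senses bile acids, and its target Nr0b2 encodes SHP, a repressor of Cyp7a1 and Cyp8b1 transcription.

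In alcohol-fed liver, the 7-alpha-hydroxylases of both pathways were low. Cyp7a1 was 7.20 times and Cyp7b1 5.58 times lower in AF than in PF on the mean FPKM, and neither gene's AF libraries overlapped its PF libraries. The Cyp7b1 values come from an entry of assembled transcripts alone, and how well they measure the annotated transcript was not tested. The only entry of Cyp8b1 was a single assembled transcript, too low to be tested, and its annotated transcript was not analysed. The other enzymes, the transporters and the FXR and SHP genes did not pass the threshold. With MNA, Cyp7a1 and Cyp7b1 lay between the AF and PF means and overlapped AF.

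FPKM is a level scaled to the length of the transcript and to the fragments of the library. A gene is called past the threshold where limma gave an unadjusted p under 0.05 and the ratio of the mean FPKM of the groups, in log2, was above 1 or below -1. The methods of the study give these cut-offs for lncRNAs tested with Ballgown, and limma was used here in its place. The Benjamini-Hochberg adjusted p of limma over all genes tested is given beside it, and none of the 10 genes had an adjusted p under 0.05. With 3 libraries against 3, the exact two-sided permutation test of a single gene cannot go below 0.1. A bulk liver value does not tell fewer cells of a type from less RNA per cell. Relative sequencing depth ran from 0.870 to 1.24 of the median library. The summed FPKM of transcripts assembled inside introns was 9433 in AF replicate 3 and 8934 in AF with MNA replicate 1, against 2477 to 4937 in the other 7 libraries, so that moved values and calls are also given without these libraries.

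**Figure D1:**
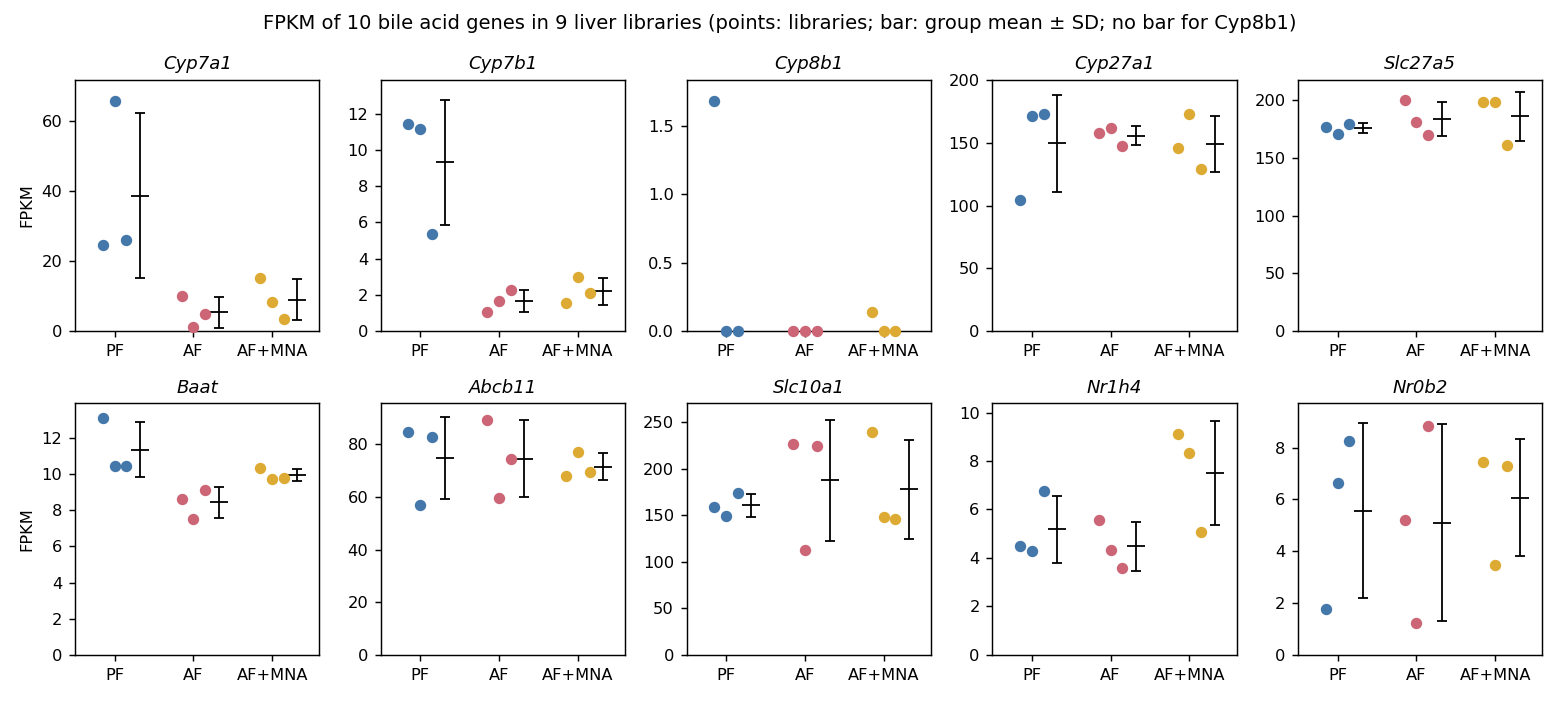
FPKM of the 10 genes (vertical axes, linear from 0) in 3 PF, 3 AF and 3 AF with MNA libraries. Each point is a library and the bar beside it is the group mean ± SD, except for Cyp8b1. Cyp7a1 and Cyp7b1 are lower in all 6 alcohol-fed libraries than in any PF library.

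Sequences are shown for other RNAs of the Cyp7b1 and Nr1h4 loci, in the mouse build GRCm38. The snRNA Gm23686 lies on the same strand inside intron 1 of Cyp7b1 (chr3:18177462-18177625, minus strand) and is given whole, since it too was past the threshold in both comparisons with PF. The back-splice junctions of the most read circRNAs of Nr1h4 and Cyp7b1 are given with the end of the last exon in lower case and the start of the first exon in capitals, 15 bases on each side.
Gm23686: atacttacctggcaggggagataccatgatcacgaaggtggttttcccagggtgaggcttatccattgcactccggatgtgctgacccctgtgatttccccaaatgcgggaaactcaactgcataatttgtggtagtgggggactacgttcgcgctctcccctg
Nr1h4 circRNA, exons 3 to 7 (chr10:89473752-89483524, minus strand): gaattcgaaagagtgGTTTCTTCCGAAGAA
Cyp7b1 circRNA, exons 2 to 4 (chr3:18096523-18103837, minus strand): gcttggtctgcctggGCGCCCTCGTGAACC

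The window of 250 bases before the start of Abcb11 (chr2:69342617-69342866, minus strand, RefSeq on GRCm38.p6) is shown because Abcb11 is a textbook FXR target and was not past the threshold in any comparison. Capitals mark the matches to an inverted repeat of AGGTCA and TGACCT with 1 base between them, the kind of site that FXR binds, with at most 2 mismatches.
Abcb11: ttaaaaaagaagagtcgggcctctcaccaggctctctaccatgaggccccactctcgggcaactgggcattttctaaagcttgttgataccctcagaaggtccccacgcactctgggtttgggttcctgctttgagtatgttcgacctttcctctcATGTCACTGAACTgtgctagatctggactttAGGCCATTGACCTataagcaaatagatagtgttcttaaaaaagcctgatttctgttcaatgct
The match with 1 mismatch starts 63 bases before the start site and the match with 2 mismatches starts 94 bases before it. A repeat of this kind with at most 2 mismatches was found in 1.14% of 32851 mouse promoter windows of 300 bases. Promoter windows were matched for 6 of the 10 genes, Cyp27a1, Abcb11, Nr0b2, Cyp8b1, Nr1h4 and Slc10a1, the last with 2 windows, and only that of Abcb11 held the repeat. A direct repeat of AGGTCA with 1 base between its copies and at most 2 mismatches, searched on both strands and found in 3.86% of all windows, occurred once, in the window of Nr1h4. The exact inverted and direct repeats, and TCAAGGTCA and TCAAGGCCA, were in none of the windows of the 6 genes; they were in 0.00913%, 0.0396%, 0.423% and 0.591% of all windows. AGGTCA alone, which these repeats contain, was in the windows of Abcb11, Nr1h4 and Slc10a1 and in 16.3% of all windows. TATAAA was in the windows of Nr0b2, Cyp8b1 and Slc10a1 and in 13.6% of all windows. These matches describe letters only.

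In PF, the mean levels ordered the genes from Slc27a5 (176 FPKM), Slc10a1 (161 FPKM) and Cyp27a1 (150 FPKM) through Abcb11 (74.7 FPKM) and Cyp7a1 (38.8 FPKM) to Baat (11.3 FPKM), Cyp7b1 (9.32 FPKM), Nr0b2 (5.57 FPKM) and Nr1h4 (5.19 FPKM). Cyp8b1 is left out of the order, as it was listed at 0 in most libraries. Each of these neighbours overlapped across the PF libraries except Cyp27a1 with Abcb11 and Cyp7a1 with Baat. In AF the order of the first places was Slc10a1 (188 FPKM), Slc27a5 (184 FPKM), Cyp27a1 (156 FPKM) and Abcb11 (74.4 FPKM), and below them Cyp7a1 (5.39 FPKM) stood under Baat (8.44 FPKM), and Cyp7b1 (1.67 FPKM) came last, under Nr0b2 (5.10 FPKM) and Nr1h4 (4.49 FPKM). Cyp7a1 and Baat overlapped across the AF libraries, and Cyp7b1 did not overlap Nr1h4 but did overlap Nr0b2. With MNA the order was Slc27a5 (186 FPKM), Slc10a1 (178 FPKM), Cyp27a1 (149 FPKM), Abcb11 (71.5 FPKM), Baat (9.95 FPKM), Cyp7a1 (9.05 FPKM), Nr1h4 (7.51 FPKM), Nr0b2 (6.06 FPKM) and Cyp7b1 (2.20 FPKM). Its neighbours overlapped except Cyp27a1 with Abcb11, Abcb11 with Baat, and Nr0b2 with Cyp7b1. The coefficient of variation over the 9 libraries, which includes the differences between groups, was 7.68% for Slc27a5, about 15% for Cyp27a1 (15.1%), Baat (15.5%) and Abcb11 (15.0%), 25.2% for Slc10a1, 33.9% for Nr1h4, 50.4% for Nr0b2, 93.4% for Cyp7b1 and 113% for Cyp7a1. Within PF, AF and AF with MNA it was 60.5%, 83.5% and 65.3% for Cyp7a1 and 60.5%, 74.6% and 37.2% for Nr0b2, but 36.9%, 35.3% and 33.2% for Cyp7b1. It was at most 34.7% within any group for each of the other 6 tested genes.

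The comparison of AF with PF asks what alcohol feeding does to the liver transcriptome. Cyp7a1 (chr4:6265612-6275633, minus strand) measured 24.5, 65.9 and 26.0 FPKM in PF replicates 1 to 3 and 10.1, 1.13 and 4.94 FPKM in AF replicates 1 to 3. The lowest PF library stood above the highest AF library, and within each group the values were widely spread, with PF replicate 2 high and AF replicate 2 low. The log2 ratio of the means, 38.8 ± 23.5 FPKM in PF and 5.39 ± 4.50 FPKM in AF (SD, n = 3 each), was -2.85. On log2(FPKM + 1), limma gave a difference of -2.79 (SE 0.65, 95% CI -4.36 to -1.21), with unadjusted p = 0.0044 and adjusted p = 0.198. The gene passed the threshold without any single library, but the size rested on some of them. The mean was 4.69 times lower without PF replicate 2 and 12.8 times lower without AF replicate 1, against 7.20 times with all libraries.

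Cyp7b1 (chr3:18071950-18243338, minus strand) measured 11.5, 11.2 and 5.36 FPKM across PF and 1.08, 1.67 and 2.26 FPKM across AF. The groups did not overlap, and PF replicate 3 was the low one of its group. The means were 9.32 ± 3.44 FPKM in PF and 1.67 ± 0.59 FPKM in AF (SD, n = 3 each), a log2 ratio of -2.48. As its entry held assembled transcripts alone, it was tested in a limma fit over all named entries, which was added after the values were seen, and there the difference on log2(FPKM + 1) was -1.91 (SE 0.31, 95% CI -2.65 to -1.17; unadjusted p = 0.00061, adjusted p = 0.0915).

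Cyp8b1 (chr9:121914356-121916305, minus strand) was listed at 1.68, 0 and 0 FPKM in PF and at 0 in all AF libraries. These values belong to a single assembled transcript, the annotated transcript of the gene was not analysed here, and the entry was too low to be tested. No statement on the level of the 12-alpha-hydroxylase can be drawn from them. Cyp27a1 (chr1:74713574-74737892, plus strand), the mitochondrial sterol 27-hydroxylase, measured 105, 171 and 173 FPKM across PF and 158, 162 and 148 FPKM across AF. PF replicate 1 was the lowest of these 6 libraries and the groups overlapped. The difference on log2(FPKM + 1) was 0.09 (95% CI -0.44 to 0.63, limma adjusted p = 0.907).

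Neither conjugating enzyme was past the threshold. Slc27a5 (chr7:12988346-12998192, minus strand), the bile acid CoA ligase, measured 177, 171 and 179 FPKM across PF and 200, 181 and 170 FPKM across AF, overlapping groups. Its difference on log2(FPKM + 1) was 0.06 (95% CI -0.26 to 0.39, limma adjusted p = 0.898). Baat (chr4:49489422-49506557, minus strand), the amino acid transferase, measured 13.1, 10.5 and 10.5 FPKM across PF and 8.64, 7.52 and 9.15 FPKM across AF. All AF libraries lay below all PF libraries, at a ratio of the means of 0.743. The log2 ratio of -0.43 stayed inside the threshold at unadjusted p = 0.0319 (limma adjusted p = 0.381).

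The transporters overlapped between PF and AF. Abcb11 (chr2:69238282-69342616, minus strand) measured 84.7, 57.01 and 82.5 FPKM across PF and 89.0, 59.7 and 74.5 FPKM across AF, and replicate 2 was the lowest in both groups. Its difference on log2(FPKM + 1) was -0.00278 (95% CI -0.54 to 0.53, limma adjusted p = 0.997). Slc10a1 (chr12:80953183-80968705, minus strand) measured 159, 150 and 174 FPKM across PF and 227, 113 and 224 FPKM across AF. AF held both the highest values and the lowest, and the SD was 65.1 FPKM in AF against 12.4 FPKM in PF. The difference was 0.15 (95% CI -0.54 to 0.85, limma adjusted p = 0.878).

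The receptor and repressor genes were low and variable. Nr1h4 (chr10:89454234-89533585, minus strand) measured 4.48, 4.30 and 6.78 FPKM across PF and 5.58, 4.31 and 3.58 FPKM across AF. Its difference on log2(FPKM + 1) was -0.17 (95% CI -0.67 to 0.33, limma adjusted p = 0.806). Nr0b2 (chr4:133553376-133556536, plus strand) measured 1.79, 6.65 and 8.27 FPKM across PF and 5.21, 1.24 and 8.84 FPKM across AF. Each group held a low and a high library, and the interval of the difference, -1.75 to 1.40 around -0.18 (limma adjusted p = 0.946) on log2(FPKM + 1), was as wide as that of Cyp7a1. Without AF replicate 3, its highest AF library, the log2 ratio of the means went from -0.13 to -0.79, and it was -0.55 to 0.33 without any other single library. Within AF, replicate 2 had the lowest level of Cyp7a1, of Nr0b2 and of Slc10a1.

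Among the 8 genes with an annotated transcript, 1 (Cyp7a1) was past the threshold, beside 4.3% of 12268 genes tested, with 2.35% lower in AF. Without AF replicate 3 the share of all genes was 6.27%, with 3.97% lower, and without any other single library it was 4.21% to 4.56%. For 2 of the 8 (Cyp7a1 and Baat) AF and PF did not overlap, beside 18.3% of all genes, with 10.1% lower in AF. None had an adjusted p under 0.05, beside 0.326%. In the fit over all named entries, 2 genes (Cyp7a1 and Cyp7b1) of the 9 tested were past the threshold, beside 5.07% of 16936 entries, 2.39% lower, and 16.2% of those entries did not overlap. The median difference of the 8 genes on log2(FPKM + 1) was -0.08, beside -0.03 over all genes tested.

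**Figure D2:**
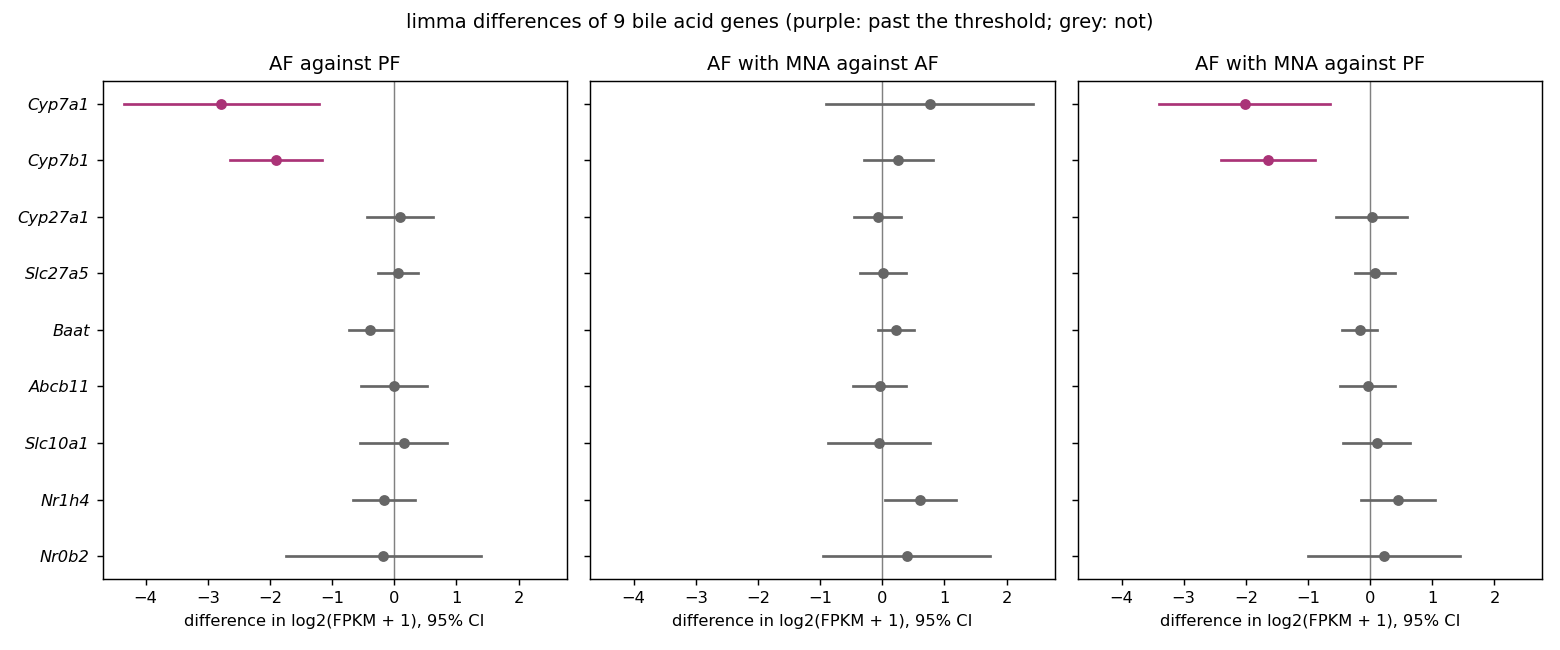
Difference in log2(FPKM + 1) from limma (horizontal axis, points) with its 95% confidence interval (lines) for 9 genes in 3 comparisons, with Cyp7b1 from the fit over all named entries. Cyp7a1 and Cyp7b1 lie below 0 in both comparisons with PF, and no gene is past the threshold in AF with MNA against AF.

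The comparison of AF with MNA against AF asks what MNA given by daily injection adds to alcohol feeding. It shares the AF libraries with the comparison above. No vehicle injection of AF mice is described, and the strain labels of the groups differ too. The parts of MNA, of the injection and of any strain difference cannot be told apart. Cyp7a1 measured 15.3, 8.26 and 3.57 FPKM with MNA, a range that overlapped AF, and the difference from AF on log2(FPKM + 1) was 0.77 (95% CI -0.90 to 2.43, limma adjusted p = 0.980). AF with MNA replicate 1, the highest, is one of the libraries with high intron signal. Without it and AF replicate 3, the log2 ratio of the means went from 0.75 to 0.08, and it was 1.58 without AF replicate 1, where it did not pass the threshold either. Cyp7b1 measured 1.53, 2.98 and 2.09 FPKM with MNA, a difference of 0.26 (95% CI -0.30 to 0.82, limma adjusted p = 0.993 over all named entries). Without the same libraries its log2 ratio went from 0.40 to 0.88, and it did not pass the threshold.

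Nr1h4 had higher values with MNA in most libraries. It measured 9.13, 8.34 and 5.07 FPKM, against 5.58, 4.31 and 3.58 FPKM in AF, and AF with MNA replicate 3 lay inside the AF range. The log2 ratio of the means was 0.74, below the threshold, at unadjusted p = 0.0391 and limma adjusted p = 0.940. Without AF replicate 3 and AF with MNA replicate 1 it was 0.44, at unadjusted p = 0.265. Baat measured 10.3, 9.71 and 9.81 FPKM with MNA, all above the AF libraries and below the PF libraries, a log2 ratio to AF of 0.24 (limma adjusted p = 0.961).

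The remaining members overlapped AF. Cyp27a1 measured 146, 173 and 129 FPKM with MNA (difference on log2(FPKM + 1) -0.07, 95% CI -0.45 to 0.30), and Slc27a5 measured 198, 198 and 162 FPKM (0.01, 95% CI -0.35 to 0.38). Abcb11 measured 67.8, 77.2 and 69.5 FPKM (-0.04, 95% CI -0.47 to 0.38), a narrower range than in AF. Slc10a1 measured 240, 148 and 146 FPKM (-0.05, 95% CI -0.87 to 0.77), with replicate 1 well above the other libraries of its group. Nr0b2 measured 7.43, 3.46 and 7.30 FPKM (0.40, 95% CI -0.95 to 1.74), and its log2 ratio of the means went from 0.25 to 0.91 without AF replicate 3. Cyp8b1 was listed at 0.14, 0 and 0 FPKM. None of the 8 genes was past the threshold in limma, beside 1.98% of 12214 genes. At an unadjusted p under 0.05 there was 1 (Nr1h4), beside 5.22%, and at an adjusted p under 0.05 there was none, beside 0.0491%. In the fit over all named entries none of 9 was past the threshold, beside 2.95% of 17132 entries. Of the 8 genes, 1 (Baat) did not overlap, beside 10.1% of all genes, with 5.53% higher with MNA.

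Against PF, the AF with MNA libraries share the PF libraries of the alcohol comparison. Cyp7a1 was 4.29 times lower than in PF, at 9.05 ± 5.91 FPKM (SD, n = 3), and did not overlap PF (log2 ratio -2.10, unadjusted p = 0.0112, limma adjusted p = 0.228). The factor was 2.79 without PF replicate 2 and 6.56 without AF with MNA replicate 1. Cyp7b1 was 4.24 times lower, at 2.20 ± 0.73 FPKM (SD, n = 3), also without overlap (log2 ratio -2.08, unadjusted p = 0.00172, limma adjusted p = 0.136 over all named entries). Of the 8 genes with an annotated transcript, 1 was past the threshold, beside 3.89% of 12276 genes, with 1.95% lower, and 2 (Cyp7a1 and Baat) did not overlap, beside 21.4%, with 11.9% lower. None had an adjusted p under 0.05, beside 0.432%. In the fit over all named entries 2 were past the threshold, beside 4.56% of 16326 entries, 2.35% lower, and 18.8% of those entries did not overlap. The difference of Nr1h4 from PF was 0.45 (95% CI -0.15 to 1.05, limma adjusted p = 0.479). The intervals of Cyp27a1, Slc27a5, Abcb11, Slc10a1 and Nr0b2 all included 0.

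Other readouts of the same loci were compared with the genes. Gm23686, the snRNA inside intron 1 of Cyp7b1, measured 3.62, 5.23 and 2.08 FPKM across PF, 0.60, 0.34 and 0.81 FPKM across AF, and 0.58, 0.91 and 0.78 FPKM with MNA. It was past the threshold against PF in AF (log2 ratio -2.64, unadjusted p = 0.00106, limma adjusted p = 0.110) and in AF with MNA (log2 ratio -2.27, unadjusted p = 0.00179, limma adjusted p = 0.125). As in Cyp7b1, PF replicate 3 was the lowest of the PF libraries. Its sequence is that of a U1-type spliceosomal RNA, a family with many near-identical copies, so that reads could be shared with other copies or come from the surrounding intron, and its level is uncertain. Whether it is a transcript of its own was not tested.

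The circRNA of exons 2 to 4 of Cyp7b1 had 5, 3 and 0 junction reads in PF and 0 in all 6 alcohol-fed libraries, where a count of 0 allows up to 3 reads per library. This is too few to tell the groups apart. Nr1h4 gave the circRNA with the most reads of these loci, made of exons 3 to 7 with a spliced length of 624 bases. Its junction reads numbered 18, 11 and 13 across PF, 8, 1 and 15 across AF, and 26, 7 and 11 with MNA. AF replicate 2 stood out with 1 read, and the groups overlapped. All 4 circRNAs of Nr1h4 together had 45 reads in PF, 27 in AF and 55 in AF with MNA. Abcb11 gave 10 circRNAs with 26 reads in all 9 libraries and Slc27a5 gave 1 circRNA with 3 reads. The other 6 genes, Cyp7a1, Cyp8b1, Cyp27a1, Baat, Slc10a1 and Nr0b2, had no circRNA in the table.

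**Figure D3:**
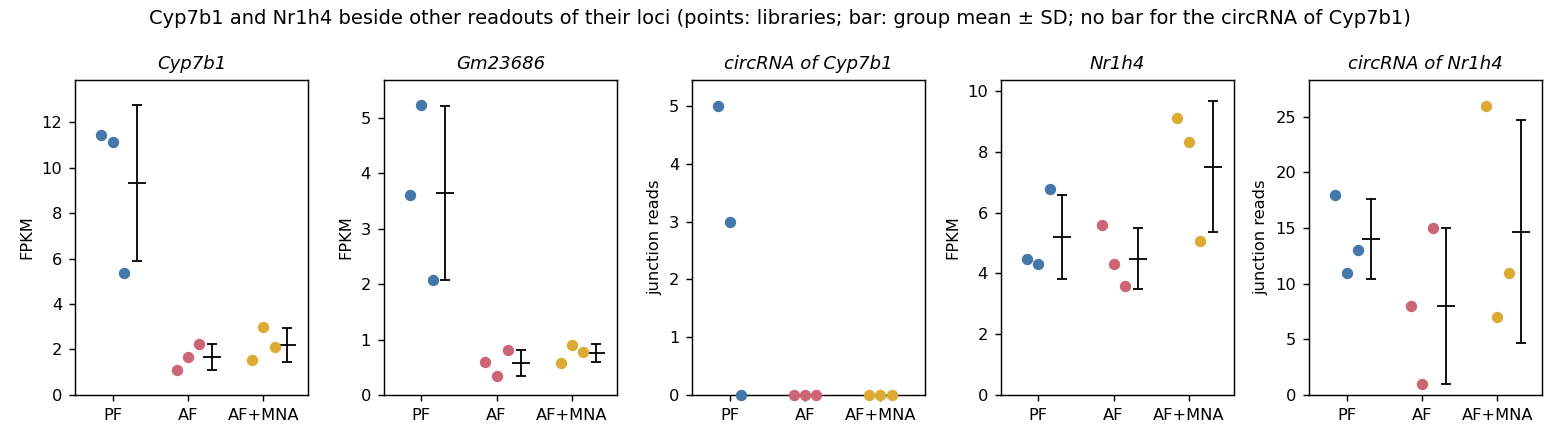
FPKM of Cyp7b1, of the snRNA Gm23686 in its intron 1 and of Nr1h4, and junction reads of 1 circRNA of each gene (vertical axes, linear from 0), in 3 PF, 3 AF and 3 AF with MNA libraries. Points are libraries and bars are group means ± SD, with no bar for the circRNA of Cyp7b1, and Gm23686 is lower in all alcohol-fed libraries than in any PF library.

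Other genes of the pathway were taken from lists by role, drawn up with earlier results of these data known, so that their counts are no independent evidence of a direction. Of 16 tested genes for the side steps of synthesis, 3 rose and 1 fell past the threshold in AF, beside 4.3% of all genes tested in either direction. Cyp39a1, the 7-alpha-hydroxylase of 24-hydroxycholesterol, rose from 10.6, 7.57 and 11.7 FPKM in PF to 41.5, 27.4 and 25.1 FPKM in AF (log2 ratio 1.65, limma adjusted p = 0.0828). Its direction was opposite to that of Cyp7a1 and Cyp7b1, the other 7-alpha-hydroxylases. Cyp2c70, which makes muricholic acids in mice, rose from 68.0, 81.6 and 92.4 FPKM to 231, 256 and 133 FPKM (log2 ratio 1.36, limma adjusted p = 0.152). Ephx1, the microsomal epoxide hydrolase, rose at a log2 ratio of 1.55 (limma adjusted p = 0.117). Scp2, whose longer product is the peroxisomal thiolase of side-chain shortening, fell from a range of 110 to 146 FPKM to one of 51.5 to 67.1 FPKM (log2 ratio -1.18, limma adjusted p = 0.0798). Akr1c6, the most abundant gene of the list over all libraries but below Cyp2c70 and Ephx1 in AF, measured 283 ± 18.0 FPKM in PF and 192 ± 29.5 FPKM in AF (SD, n = 3 each; log2 ratio -0.56, not past the threshold). The median difference of the list was -0.21 on log2(FPKM + 1), beside -0.03 over all genes.

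Among 13 tested genes of other bile acid transport, 2 rose and 2 fell in AF, beside the same 4.3%. Both genes that rose encode basolateral efflux pumps. Abcc3, the most abundant gene of the list over all libraries but below Fabp1, Slco1b2, Abcc2 and Slco1a1 in PF, went from 30.6, 29.8 and 27.5 FPKM in PF to 107, 80.8 and 84.2 FPKM in AF (log2 ratio 1.63, limma adjusted p = 0.0143), and Abcc4 from 0.31, 0.32 and 0.25 FPKM to 7.43, 6.12 and 5.04 FPKM (log2 ratio 4.40, limma adjusted p = 0.00293). The uptake transporter Slco1a1 fell from 34.8, 53.9 and 47.7 FPKM to 5.54, 16.9 and 10.6 FPKM (log2 ratio -2.04, limma adjusted p = 0.114). Fabp1, which binds fatty acids and bile acids in the cytosol, fell at a log2 ratio of -1.14 (limma adjusted p = 0.373), with overlapping groups. It lost the call without PF replicate 1 (log2 ratio -1.0), PF replicate 3 (-1.01), AF replicate 1 (-0.87) or AF replicate 2 (-0.94), and stood at -1.77 without AF replicate 3. Without AF replicate 2, Slco1a4 rose past the threshold (1.40). Abcc3 and Abcc4 were thus the bile acid transporters with an adjusted p under 0.05, while the canalicular pump Abcb11 and the uptake carrier Slc10a1 were not past the threshold. The median difference of the list was 0.12.

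In the list of genes that control synthesis, 1 of 18 tested genes was past the threshold in AF, beside 4.3% of all genes. It was the liver transcription factor Onecut1, which fell from 3.64, 2.25 and 6.71 FPKM to 1.58, 1.19 and 1.31 FPKM (log2 ratio -1.63, limma adjusted p = 0.293). Without AF replicate 3, or without PF replicate 2, 2 genes were past it, as the coactivator gene Ppargc1a rose too (log2 ratios 1.15 and 1.16), beside 6.27% and 4.56% of all genes. Ppargc1a measured 1.63, 3.13 and 2.54 FPKM across PF and 3.93, 6.84 and 3.16 FPKM across AF. Rxra, the partner of FXR, measured 26.8 ± 3.09 FPKM in PF and 23.5 ± 3.89 FPKM in AF (SD, n = 3 each). Hnf4a, a nuclear receptor that drives Cyp7a1 and the most abundant gene of the list, measured 56.3, 42.3 and 41.6 FPKM across PF and 67.0, 69.4 and 29.1 FPKM across AF. Neither passed the threshold. Fgf15, the intestinal signal to the liver, had no entry. The median difference of the list was -0.05.

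Of 8 tested genes for sulfation, glucuronidation and hydroxylation of bile acids, 2 rose and 1 fell in AF, beside 4.3% of all genes. Sult2a8, the main hepatic bile acid sulfotransferase of male mice, fell from 110, 129 and 129 FPKM to 41.9, 31.1 and 37.2 FPKM (log2 ratio -1.74, limma adjusted p = 0.0134). Cyp3a11 rose from 71.9, 120 and 128 FPKM to 303, 335 and 224 FPKM (log2 ratio 1.43, limma adjusted p = 0.121). Cyp2b10, the standard target of the nuclear receptor CAR, rose from 0.28, 0.22 and 3.33 FPKM to 260, 195 and 133 FPKM (log2 ratio 7.26, limma adjusted p = 0.0073). The PF mean of Cyp2b10 rested on PF replicate 3, and without it the log2 ratio was 9.61. Ugt1a1, which conjugates bilirubin, rose past the threshold without AF replicate 2, PF replicate 1 or PF replicate 3 (log2 ratios 1.02 to 1.10). The median difference of the list was 0.42.

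**Figure D4:**
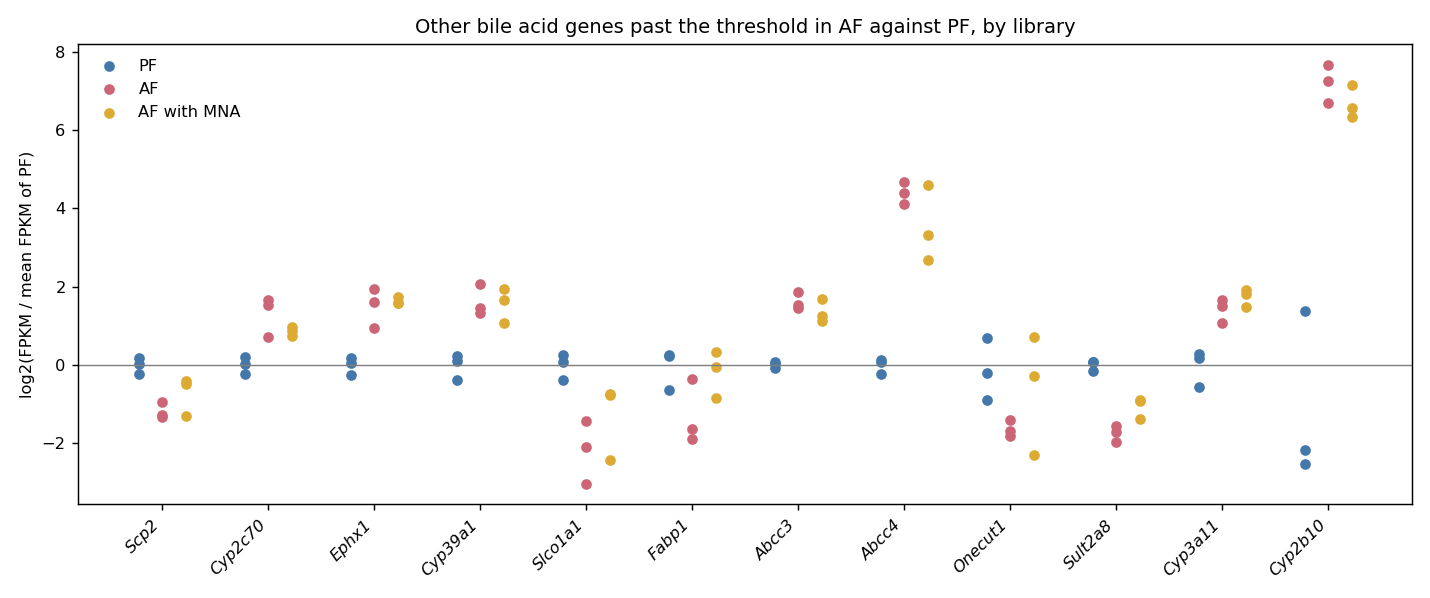
Log2 ratio of each library's FPKM to the PF mean (vertical axis) for the 12 other bile acid genes past the threshold in AF against PF, by library and group. Cyp2b10 and Abcc4 show the highest ratios in AF, at log2 ratios of the means of 7.26 (9.61 without PF replicate 3) and 4.40, and Slco1a1 the lowest at -2.04.

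With MNA, few of these genes were past the threshold against AF, beside 1.98% of all genes. The side-step list (16 genes), the transport list (13 genes) and the sulfation and hydroxylation list (8 genes) had none in limma. Of those genes, Akr1c6, Slco1b2 and Sult2a8 had an unadjusted p under 0.05, at log2 ratios of 0.42, 0.38 and 0.69, beside 5.22% of all genes at that p. Without AF replicate 3 and AF with MNA replicate 1, Fabp1 (log2 ratio 1.93) rose past the threshold and Abcc4 (-1.5) and Cyp2b10 (-1.01) fell, and in the control list Foxa2 (2.70) and Onecut1 (1.9) rose and Ppargc1a (-1.53) fell, while the share of all genes past the threshold rose from 1.98% to 3.9%. With all libraries Foxa2, a liver pioneer factor in the control list, was past the threshold, at 1.11, 0.93 and 1.15 FPKM in AF and 2.42, 9.69 and 3.56 FPKM with MNA (log2 ratio 2.30, limma adjusted p = 0.940). The ratio was 1.49 without AF with MNA replicate 2, its highest library, and Foxa2 in PF, at 3.31, 0.21 and 1.06 FPKM, overlapped both groups. Leaving out AF with MNA replicate 1 alone, Fabp1 (1.29), Slco1a1 (1.29) and Onecut1 (1.92) rose past the threshold. Abcc4 (-1.37) and Ppargc1a (-1.32) then fell past it, beside 2.68% of all genes. Leaving out AF replicate 3 alone, Fabp1 (1.66) and Nr1i3, the gene of CAR (1.18), rose past it, beside 3.03%. Against PF, Cyp39a1, Ephx1, Abcc3, Abcc4, Cyp3a11, Cyp2b10 and Nr1i3 rose in AF with MNA, and Slco1a1 and Sult2a8 fell, beside 3.89% of all genes past the threshold. Of these, Ephx1, Abcc3 and Cyp2b10 had a limma adjusted p under 0.05 (0.0173, 0.0459 and 0.0171). Slco1a1 lost the call without AF with MNA replicate 1, without PF replicate 2 or without PF replicate 3 (log2 ratios -0.76, -0.99 and -1.10), Sult2a8 without AF with MNA replicate 2 (-0.91), and Nr1i3 without AF with MNA replicate 2, PF replicate 1 or PF replicate 3 (0.75, 1.11 and 1.16). The log2 ratio of Cyp2b10 went from 6.74 to 9.09 without PF replicate 3 and that of Abcc4 from 3.76 to 3.03 without AF with MNA replicate 1. Without AF with MNA replicate 1, Foxa2 rose (2.12) and Ugt2b1 fell (-1.03) past the threshold. Foxa2 also did so without PF replicate 1 (3.04), Ugt2b1 without PF replicate 1 (-1.08) or AF with MNA replicate 2 (-1.18), Ugt1a1 rose without PF replicate 1 (1.06) or PF replicate 3 (1.11), and Sult2a7 rose without AF with MNA replicate 3 (1.41).

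Lists outside the pathway were compared with Cyp7a1 and Cyp7b1. Cyp7b1 is a male-biased gene in mouse liver, and of the 11 tested genes in a list of male-biased liver genes, which holds Slco1a1 too, 8 fell past the threshold in AF, beside 2.35% of all genes (8 without AF replicate 3, beside 3.97%), and 7 in AF with MNA, beside 1.95%. This list too was drawn up with results of these data known, some of its genes are also listed by the study from these samples, and its counts are no independent evidence of its direction. Leaving out a single library gave 8 to 9 genes in AF and 4 to 8 in AF with MNA, where 4 passed without PF replicate 1 or without PF replicate 2. Their summed FPKM ran from 2951 to 4012 in PF, from 595 to 1021 in AF and from 575 to 1471 in AF with MNA, with Mup3 a large part of it. Against AF, 1 of 10 tested (Elovl3) rose with MNA, beside 1.03% of all genes, at a log2 ratio of 1.98 that stayed between 1.60 and 2.26 in the 5 fits without a single library in which its unadjusted p rose above 0.05, and there were 6 of 11 higher without AF with MNA replicate 1, beside 1.22% of all genes, and 5 of 11 without it and AF replicate 3, beside 2.23%. Cyp7a1 follows a daily rhythm, and of 12 tested clock genes none was past the threshold in limma between AF and PF, beside 4.3% of all genes, and none had an unadjusted p under 0.05, beside 11.7%. Dbp, an activator of Cyp7a1, measured 12.8, 10.5 and 31.6 FPKM across PF and 11.7, 3.99 and 10.5 FPKM across AF (log2 ratio -1.07, unadjusted p = 0.105), and AF replicate 2 was lowest for it as for Cyp7a1. Without AF replicate 3, Per2 and Per3 fell past the threshold, beside 3.97% of all genes. In AF with MNA, 1 of 13 tested (Cry1) was past the threshold against AF, beside 1.98% of all genes, and 1 of 13 (Arntl) against PF, beside 3.89%. Cry1 lost the call without AF replicate 1 or AF with MNA replicate 2 (log2 ratios 0.78 and 0.87), and Arntl without PF replicate 2 (1.55), and Arntl was too low to be tested without AF with MNA replicate 2 or AF with MNA replicate 3. Per2 rose against AF without AF replicate 3 (1.25), and Nfil3 rose against PF without AF with MNA replicate 1 or PF replicate 1 (1.26 and 1.51) and against AF without AF replicate 2 (1.10). Nr1d1 fell against PF without PF replicate 2 (-1.02). The part of these groups in the result for Cyp7a1 and Cyp7b1 was not tested.

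The labelled tissue was checked against its markers, for which the shares of all genes past the threshold are again 4.3% in AF and 3.89% in AF with MNA, both against PF, and 1.98% in AF with MNA against AF. None of 6 hepatocyte markers was past the threshold in limma in any comparison, and their summed FPKM ran from 17755 to 22628 in PF, from 15022 to 21573 in AF and from 20429 to 21935 in AF with MNA, with AF replicate 2 lowest. Summed markers of cholangiocytes ran from 10.9 to 20.4 FPKM in PF, from 14.5 to 19.4 FPKM in AF and from 12.2 to 17.0 FPKM in AF with MNA, with 3 of 9 under 0.5 FPKM in every library. One of these markers, the apical bile acid carrier Slc10a2, was past the threshold in both comparisons with PF (means of 5.93, 1.60 and 1.34 FPKM in PF, AF and AF with MNA), but lost the call in AF without PF replicate 1, PF replicate 3, AF replicate 1 or AF replicate 3 (log2 ratios -1.62, -1.68, -1.5 and -1.56, against -1.89) and stood at -3.07 without AF replicate 2. Summed markers of sinusoidal endothelium were higher in all alcohol-fed libraries, at 24.02 to 28.5 FPKM in PF, 28.9 to 40.2 FPKM in AF and 34.4 to 39.2 FPKM in AF with MNA. None of the 6 was past the threshold in limma, while 5 of 6 in AF and 6 of 6 in AF with MNA had a difference from PF above 0. The sums of the macrophage, stellate cell and erythroid markers overlapped PF in both alcohol-fed groups, as did that of the lymphocyte markers, of which 4 of 5 were under 0.5 FPKM in every library. Among these lists, 1 of 6 macrophage markers (Marco, higher) and 1 of 4 erythroid markers (Alas2, lower) was past the threshold in both comparisons with PF, and none of the others. In AF, the difference was below 0 for 4 of the 6 macrophage markers and above 0 for the other 3 erythroid markers. Marco lost the call in AF without any of 4 single libraries (log2 ratios 0.88 to 1.27) and Alas2 in AF with MNA without any of 3 (-1.16 to -0.80). Without some single library, further markers passed the threshold in AF against PF, the stellate markers Des (log2 ratios 1.02 without AF replicate 3 and 1.05 without PF replicate 1) and Col1a1 (1.00 and 1.08), the endothelial marker Lyve1 (1.42), the cholangiocyte marker Spp1 (1.15 and 1.07), and, lower, the macrophage marker Clec4f (-1.06) and the hepatocyte marker Ttr (-1.01). Lyve1 also did so in AF with MNA against PF (1.36 and 1.63), and against AF without AF with MNA replicate 1 Spp1 and Col1a1 were lower (-1.09 and -1.02) and Alas2 higher (1.06). The part of other cell types in the values of the 10 genes was not tested.

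The genes most like Cyp7a1 over the 9 libraries, by Pearson's r of log2(FPKM + 1) among 11795 genes, were Tpmt (0.993), Med23 (0.962), Parp14 (0.955), Fbxl15 (0.954) and Cct4 (0.948). For Cyp7b1 they were Gna12 (0.970), Gm23686 (0.969), Aox3 (0.964), Ascc3 (0.963) and Mrpl48 (0.961) among 11796 genes. The points share the libraries and the PF to AF difference, so these values are a description. Aox3, an aldehyde oxidase of liver, measured 53.8 to 65.8 FPKM in PF and 21.5 to 23.0 FPKM in AF, whereas Tpmt, the thiopurine methyltransferase, kept a narrow range of 3.72 to 6.18 FPKM over all libraries.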

How the data were processed

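The authors depleted ribosomal RNA, made strand-specific libraries and deposited FPKM values of genes and lncRNA transcripts from StringTie 1.3.4. The submitters' processing notes also name cutadapt 1.9, FastQC, HISAT2, TopHat and edgeR, without roles, and the build is not given in the sources used here. Of 7879 annotated lncRNA transcripts in the deposited table, 7841 are in GENCODE M21 (GRCm38), 7708 with the same start and end. The deposited coverage signal per transcript and normalized circRNA signal gave relative depth. The deposited circRNA counts are junction reads, and the authors' CPC and CNCI scores were not used in any test. Intervals and limits for counts cover counting error only.

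Named genes that hold an annotated transcript and average 0.5 FPKM or more in the 6 libraries of a comparison were tested on log2(FPKM + 1) with limma 3.58.1 (lmFit, eBayes with an intensity trend, R 4.3.3), which was tested on simulated data, with Benjamini-Hochberg adjustment. Fold changes are log2 ratios of mean FPKMs, and differences on log2(FPKM + 1) understate changes of low genes. Nothing says that libraries of a group came from separate mice, so p-values measure the spread between libraries.

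All 10 genes are named. Other pathway genes are named where past the threshold or most abundant in their list, and for Cyp7a1 and Cyp7b1 the 5 most alike genes. Genes named outside this rule were chosen after their values were seen. The genes and lists were chosen with earlier results of these data known. Alternatives changed the pseudocount, scaling, trend, filter, libraries and entries tested. Those for the lists, those over all named entries and the one without 2 libraries together were chosen after the data were seen. The result of 1 gene of the control list is not reported here.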

Additional observations from a re-analysis of the deposited data

Results flagged for a closer look

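Gm13613 is an antisense lncRNA inside the span of Abcb11 (chr2:69248307-69272491, GRCm38) and stands in the lncRNA table, outside the comparison of the 10 genes. It drew attention because its signal in AF with MNA was above that of every PF library. Its FPKM was 1.00, 1.35 and 2.04 in AF with MNA, a mean of 1.46, against 0.72, 0.91 and 0.41 in PF and 1.08, 0.62 and 0.92 in AF. Against PF the log2 ratio of the means was 1.11, at unadjusted p = 0.0299 and limma adjusted p = 0.296, and the call was lost without PF replicate 1, PF replicate 3, AF with MNA replicate 2 or AF with MNA replicate 3 (log2 ratios 1.15, 0.84, 1.16 and 0.79). In this comparison the groups did not overlap for 21.4% of all genes tested, and 3.89% were past the threshold. As Gm13613 was picked for this separation, its p is a description only. The groups of Abcb11 itself overlapped.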

How the results depend on the processing

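Of the 8 genes with an annotated transcript, 1 was past the threshold in AF against PF, 0 in AF with MNA against AF and 1 in AF with MNA against PF. Leaving out each library in turn gave 1 to 1, 0 to 0 and 1 to 1 genes. Both counts of 1 went to 0 with the unmoderated test with a library-size covariate, where Cyp7a1 lost the call, and to 0 where an adjusted p under 0.05 alone was required. Both went to 2 with all named entries, which adds Cyp7b1. A replicate block left the counts at 1, 0 and 1; deviations of same-numbered libraries correlated at -0.0845 to 0.063, so that the numbers do not pair them. The following counts leave out the alternative of an adjusted p under 0.05 alone, under which none of the called values kept the call. Called values of Cyp7a1 and Cyp7b1 kept their sign in 60 of 60 alternatives and lost the call in 2. Uncalled values changed sign in 34 of 353 and gained a call in 0.

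Over all genes, 527, 242 and 477 were past the threshold in the 3 comparisons, in the order above. The counts were 1183, 676 and 1105 without a filter, 265, 81 and 228 at a mean of at least 2 FPKM, 249, 99 and 229 with the limma coefficient as fold change, 362, 95 and 318 with the unmoderated test and library-size covariate together, 40, 6 and 53 by an adjusted p under 0.05, and 859, 505 and 744 over all named entries. In AF with MNA against AF the count was 367 without AF replicate 3 and 470 without that library and AF with MNA replicate 1. With FPKM and no gene counts, precision was judged from 3 libraries per group, and intervals of Cyp7a1 and Nr0b2 were wide.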

Other observations

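At Slc10a1, 2 short transcripts were assembled on the opposite strand. The entry of the second (chr12:80955979-80958097, GRCm38) measured 0.84, 1.11 and 0 FPKM in PF, 1.3, 1.02 and 1.81 FPKM in AF and 0, 0 and 0.91 FPKM in AF with MNA. It was past the threshold in AF with MNA against AF in the fit over all named entries (log2 ratio -2.18, unadjusted p = 0.024, limma adjusted p = 0.926), where Slc10a1 itself was not. In that fit 2.95% of 17132 entries were past the threshold. An antisense transcript at Slc27a5 measured between 0.89 and 2.29 FPKM over all 9 libraries with overlapping groups.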
